A study of Bos taurus with 10 samples.

Results

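In mammals, most CG sites are either almost free of methylation or almost fully methylated in a given tissue. Imprinted control regions are known for a level near the middle in somatic cells, because the allele from one parent is methylated and the other is not, while sperm carries a single state. A mixture of cell types, or reads drawn from many copies of a sequence, also gives a middle level, and a level counted over reads cannot tell these settings apart. The CG sites described here were candidates for allele-specific methylation and were chosen by their levels. They are autosomal CG sites with at least 8 reads in all 10 tissues and a methylation level from 30 to 70 % in each of the 9 tissues other than testis. Of 51227 autosomal CG sites that reached 8 reads in all 10 tissues, called shared sites below, 289 (0.564 %) passed this rule and are called selected sites. The levels in the 9 tissues chose the sites and are given as a description without a test, while the levels in testis played no part in the choice.

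Methylation was measured by reduced representation bisulfite sequencing (RRBS), in which fragments made by *MspI*, an enzyme that cuts CCGG, are treated so that unmethylated cytosines are converted, in a single library from each of 10 cattle tissues. Adult females gave uterus, skeletal muscle, the lactating mammary gland (d 90) and nucleated blood cells. An adult male gave testis, juvenile females gave abomasum, ileum, frontal cortex and mammary gland parenchyma, and a male fetus gave rumen. The animals were a Hereford cow and its relatives, no treatment is named, and which tissue came from which animal is not given in the sources used here. Each tissue is a mixture of cell types, the testis library holds germ cells and somatic cells together, and tissue, sex, stage and animal cannot be told apart. Median coverage per deposited cytosine ranged from 10 reads in abomasum to 27 in ileum and nucleated blood cells. Read numbers stopped at 65535 in every library, so a site at that value has at least that many reads.

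The selected sites formed 216 runs with gaps of 200 bp or less, on all 29 autosomes. Single sites made up 173 runs, pairs 30 and 3 or more sites 13 runs, and the longest run spanned 157 bp. The plus strand held 155 of the sites and the minus strand 134. The sequences of 5 runs with several sites in sequence that is not repeated, and of 1 run from each of the 3 sequence groups described below, show both kinds of site. They are given 5′ to 3′ on the plus strand of UMD3.1, stitched from the 5 letters deposited around every cytosine, and capitals mark the selected cytosines, C on the plus strand and G opposite a cytosine of the minus strand.
Run of 12 sites, chr8:104306815-104306867: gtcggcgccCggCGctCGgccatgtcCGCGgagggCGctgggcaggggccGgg
Run of 8 sites, chr16:49259978-49260027: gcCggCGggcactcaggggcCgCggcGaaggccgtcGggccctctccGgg
Run of 3 sites with low testis levels, chr9:97661914-97661964: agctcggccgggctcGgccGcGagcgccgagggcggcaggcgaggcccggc
Run of 2 sites with low testis levels, chr27:36960108-36960160: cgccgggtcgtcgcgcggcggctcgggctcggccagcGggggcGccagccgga
Run of 3 sites with testis near the other tissues, chr21:9145528-9145575: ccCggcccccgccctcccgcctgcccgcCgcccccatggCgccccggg
The first group, 3 sites, chr8:11958713-11958765: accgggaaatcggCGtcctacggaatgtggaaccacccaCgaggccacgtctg
The second group, 4 sites, chr13:49010848-49010897: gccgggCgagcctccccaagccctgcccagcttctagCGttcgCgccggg
The third group, 1 site, chr1:11272767-11272850: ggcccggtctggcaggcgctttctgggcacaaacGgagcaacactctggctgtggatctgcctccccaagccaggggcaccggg
No annotation of UMD3.1 was used here, so the sites are given by position alone, without genes.

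Most selected sites lay in sequence that recurred elsewhere in the covered genome. The letters of 4327474 positions were known, with 0 conflicts between overlapping entries. A site was called repeated when a word of 16 letters within 60 bp of it, read on either strand, was found at 10 or more places among these letters. Of the 289 selected sites, 213 (73.7 %) were repeated, in 167 of the 216 runs, against 9111 (17.9 %) of the 50938 other shared sites. Many of these other sites had low levels. Of the 30593 shared sites at 20 % or less in each of the 9 tissues, 1774 (5.8 %) were repeated. Of the 3890 unselected sites whose mean over the 9 tissues was within the range of the rule, 1793 (46.1 %) were repeated. This share is the closer comparison for the selected sites. The letters were too broken to judge 3 selected and 765 other sites, which count as not repeated. With a limit of 3 places in place of 10, the shares among sites with known letters were 83.6 % of selected and 36.0 % of other sites, and with 50 places they were 68.9 % and 14.5 %. Only covered letters could be searched, so the numbers of places are lower bounds. Repeated sequence was examined after the levels had been seen, and the shares carry no test, since copies of a sequence are not independent.

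Runs that shared a word of 16 letters fell into 3 groups of 10 or more runs, which held 155 of the runs. The first group had 91 runs with 105 sites on 25 autosomes, the second 50 runs with 81 sites on 8 autosomes, and the third 14 runs with 15 sites on 5 autosomes. The other 61 runs, with 88 sites, belonged to none of these groups. For each group, the word shared by most of its runs is given with its CG in capitals.
The first group, in 25 of 91 runs: acattccagaCGtggc
The second group, in 24 of 50 runs: cttggggaggctCGcc
The third group, in 7 of 14 runs: gctgtcctccCGccta
These words were found at 351, 64 and 53 places, respectively. They were taken from the runs of selected sites, so the shares of selected sites beside them describe these copies and carry no test.

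The place of the CG within the repeated sequence went with its level. Around the copies of the second word, the CG inside the word was a selected site at 25 of 60 shared sites (41.7 %), and the median over these 60 sites of the mean of the 9 tissues was 51.1 %. CGs that lay 25 bp and 19 bp before the word were selected at 6 and 4 of 35 shared sites, with medians of 58.7 % and 59.5 %. A CG 23 bp before the word was selected at 0 of 35 shared sites and had a median of 79.6 %. Around the first word the CG inside the word was selected at 11 of 217 shared sites (5.07 %), with a median of 67.1 % and quartiles of 63.0 and 71.8 %. A CG 13 bp before this word had a median of 93.1 %, with 1 selected site among 65. In the third group the CG inside the word was selected at 5 of 20 shared sites and had a median of 50.01 %.

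**Figure D1:**
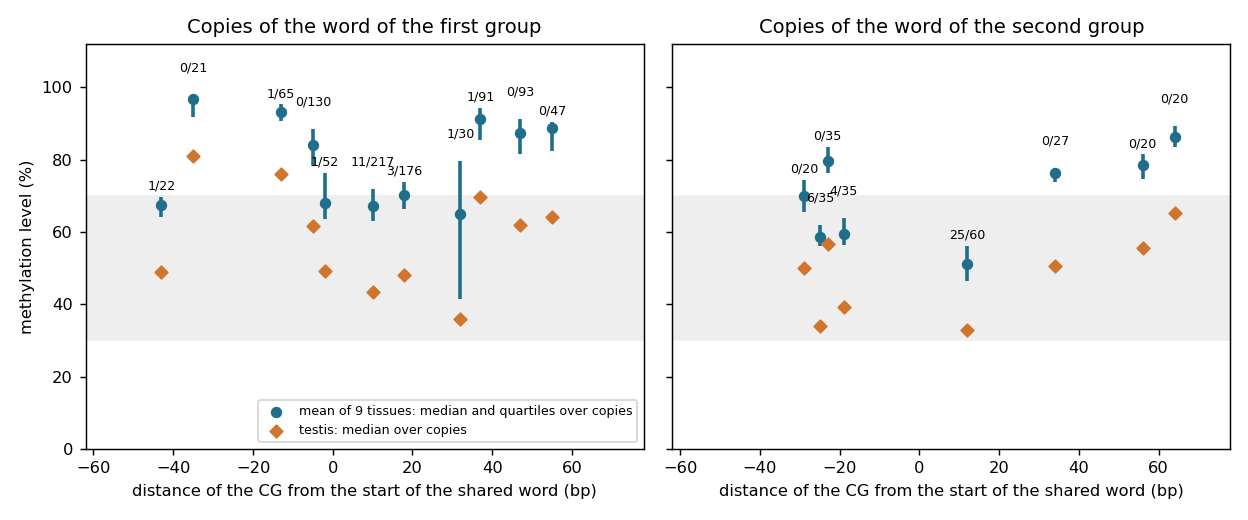
Methylation level (%) of CG sites by distance (bp) from the start of the shared word, over all shared sites beside copies of the words of the first (left) and second (right) group, for positions with at least 20 sites. Blue points and lines give the median and quartiles over copies of the mean of the 9 tissues, orange diamonds the testis median, labels the selected over all sites and the grey band the range from 30 to 70 %, and the CG inside the second word has 25 of 60 sites selected.

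Part of the selected sites lay together in a few neighbourhoods. With gaps of up to 50 kb, the 289 sites formed 135 clusters, of which 12 had at least 5 selected sites and together held 123. Among these clusters were 12 sites on chromosome 8 and 8 on chromosome 16 that were not repeated. On chromosome 13, 21 selected sites in 13 runs lay within 28.2 kb (48992552 to 49020728), among 255 shared sites. On chromosome 29, 20 sites in 14 runs lay within 49.1 kb (19399416 to 19448467), among 344 shared sites. A stretch of 29.99 kb on chromosome 3 (1019351 to 1049339) held 19 sites in 11 runs among 227 shared sites. All sites of these 3 clusters were repeated. Their runs came from the second group and, on chromosomes 13 and 29, also from the third, except for 1 run on chromosome 13 that belonged to no group.

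Coverage was higher at the selected sites than at other shared sites in all 10 libraries. The rule asks for 9 levels within the range, and counting error takes sites with few reads out of it. Part of this difference can therefore come from the choice itself. By the median over tissues, selected sites had a median of 64 reads, and unselected sites with a mean in the same range 36.5. The median coverage of selected sites ranged from 49 reads in abomasum to 82 in ileum, and that of other shared sites from 12 in abomasum to 50 in ileum. Repeated selected sites had medians from 67 to 150 reads, and selected sites that were not repeated from 16 to 65. The 289 sites, 0.564 % of the shared sites, carried between 2.70 % of the reads on shared sites in abomasum and 5.23 % in frontal cortex. The deposited reads are described as uniquely mapped, and what part reads from other copies had in these values was not tested.

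The 5 runs with the most reads per site were all repeated. A single site at chr3:1039126, in the second group, stood at 65535 reads in 7 of the tissues of the rule, while abomasum had 18256 reads, lactating mammary gland 48533 and testis 52097. Its level was 45.1 % in rumen, 46.0 % in frontal cortex, 53.4 % in skeletal muscle, 53.5 % in lactating mammary gland, 54.7 % in abomasum, 56.4 % in mammary gland parenchyma, 58.6 % in uterus, 63.3 % in nucleated blood cells and 69.0 % in ileum. Testis, at 52.2 % (95 % interval 51.8 to 52.6), lay among them. The pair at chr29:19431021-19431023, also in the second group, had 7407 to 65535 reads per site and library. Over both sites its levels were 45.2 % in ileum, 45.3 % in frontal cortex, 45.5 % in rumen, 49.7 % in abomasum, 51.7 % in mammary gland parenchyma, 52.5 % in lactating mammary gland, 53.5 % in skeletal muscle, 57.3 % in uterus and 62.1 % in nucleated blood cells. Testis, at 20.6 %, was below all of these. Both of its sites stood at 65535 reads, the value at which read numbers stopped, and what this did to the level was not tested. The other 3 were chr13:48992552, chr1:11272801 and chr22:53684793, with medians of 3824, 2632 and 1808 reads and testis levels of 47.9, 39.2 and 32.8 %.

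Over all selected sites, the median SD among the 9 tissues was 8.82 points, where counting error alone would give a median of 6.89. These levels were used by the rule, and the values are a description. Among repeated sites the 2 values were 8.52 and 5.07 points, and among the others 9.55 and 8.05.

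**Figure D2:**
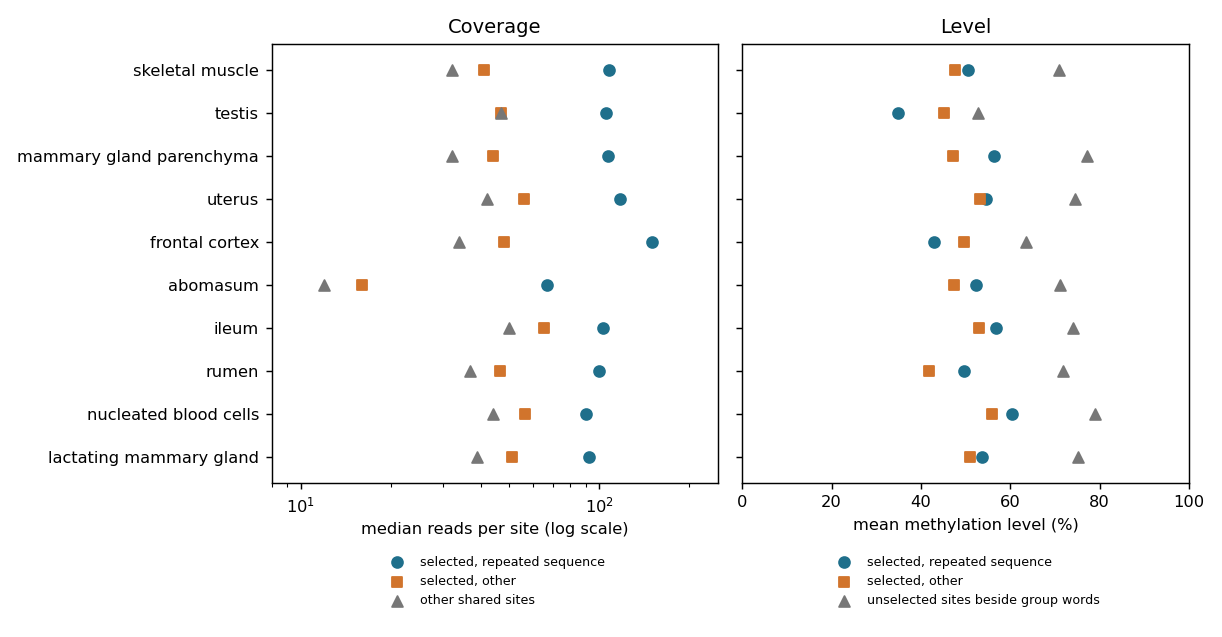
Median reads per site on a log axis (left) and mean methylation level in % (right) for each of the 10 tissues. Blue circles are the 213 repeated selected sites, orange squares the 76 other selected sites, and grey triangles the other shared sites (left) or the 6136 unselected sites near words of the 3 groups (right), and repeated sites have the most reads in all 10 tissues.

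Within the range, nucleated blood cells were highest on average and frontal cortex lowest. Over the 289 sites the mean level was highest in nucleated blood cells (59.2 %), followed by ileum (55.8 %), uterus (54.2 %), mammary gland parenchyma (54.0 %), lactating mammary gland (53.0 %), abomasum (51.0 %), skeletal muscle (49.7 %), rumen (47.6 %) and frontal cortex (44.8 %). Single libraries give no spread for neighbours in this order. Nucleated blood cells were the highest of the 9 tissues at 94 sites and frontal cortex the lowest at 115. At the 6136 unselected shared sites that shared words with a single one of the 3 groups, nucleated blood cells were likewise highest, at 79.0 %, frontal cortex the lowest of the 9, at 63.5 %, and testis lower still, at 52.7 %. At selected sites that were not repeated, nucleated blood cells were highest at 55.9 % and rumen lowest at 41.8 %, with frontal cortex at 49.6 %.

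The bounds of the rule cut through a continuous range of levels. The levels of selected sites reached both bounds, 30 and 70 %, and 127 of the 289 had a level within 2 points of a bound in at least 1 tissue. Another 523 sites were within the range in 8 of the 9 tissues, and 109 of these missed it by less than 2 points, the nearest at 29.7 and 70.1 %. The tissue that lay outside was most often nucleated blood cells (136 sites), followed by lactating mammary gland (81) and frontal cortex (71).

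Testis was not bound by the rule and lay mostly lower. Its level at the selected sites had a median of 35.5 % with quartiles of 26.7 and 44.4 %, and ranged from 6.25 to 100 %. It was within the range from 30 to 70 % at 168 sites, below it at 101 and above it at 20. Testis was below all 9 other tissues at 176 sites (60.9 %), where 16.2 % of all shared sites had testis lowest, and above all 9 at 26 sites (8.997 %), where this was so at 5.51 % of all shared sites. Many shared sites leave little room below, and of the 30593 at 20 % or less in each of the 9 tissues, testis was lowest at 0.732 %. Of the 3890 unselected sites whose mean over the 9 tissues was in the same range, testis was below all 9 at 1322 (34.0 %) and below their mean at 74.1 %, against 85.8 % of the selected sites. At the selected sites the rule kept the 9 tissues within a band that did not bind testis, so these shares are not compared by a test. Among the 6136 unselected sites sharing words with the groups, testis was lowest at 66.8 % in the first group, 67.7 % in the second and 59.4 % in the third. Among the selected sites of these groups the shares were 65.7, 65.4 and 73.3 %, the last over 15 sites.

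By Fisher's exact test (two-sided) of the reads of testis against the pooled reads of the other 9 tissues, with Benjamini-Hochberg adjustment over all 51227 shared sites, 50 selected sites (17.3 %) were lower and 7 (2.42 %) higher in testis, where a call needed a q under 0.01 and 25 points or more of difference. Over all shared sites 7.28 % were called lower and 0.621 % higher, and over the unselected sites with a mean in the same range 22.1 % lower and 4.47 % higher. Of all shared sites, 30593 were at 20 % or less in each of the 9 tissues. These cannot be lower in testis by 25 points, and 0 of them were called lower. The test compares single libraries. The larger share called lower than over all shared sites thus cannot be read apart from the levels of the sites compared. It also depended on the settings, since with a minimum of 20 reads 19.4 % of the selected and 21.8 % of all shared sites were lower, and with a difference of 40 points 1.38 and 1.94 %. When each of the 9 pairs had to pass, 5 selected sites (1.73 %) were lower and 1 (0.346 %) was higher, where 0.640 and 0.0273 % of all shared sites passed. The 50 lower sites had a median testis level of 21.7 % and a median difference of -30.4 points. Of these 50 sites 38 (76 %) were repeated, near the 73.7 % of all selected sites. Repeated sites were called lower at 17.8 % of the selected and 21.5 % of the unselected.

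Among the repeated selected sites, testis was below the mean of the 9 tissues at 203 of 213 (95.3 %) and above all 9 at 4 (1.88 %). At the 9111 unselected repeated sites these shares were 86.6 and 2.05 %. The site at chr3:82709353 in the first group had 10.8 % in testis (95 % interval 6.76 to 16.8, 148 reads) and 49.3 to 69.4 % in the other tissues (q = 1.64e-28, Fisher's exact test). A pair at chr13:48081218-48081220 in the second group had 11.1 and 10.7 % in testis and 43.0 to 69.2 % elsewhere. The only repeated selected site called higher was chr13:48996252, also in the second group. It had 92.8 % in testis (95 % interval 90.0 to 94.9, 433 reads) and 43.1 to 59.8 % in the other 9 tissues (q = 3.47e-82, Fisher's exact test). It is the site that was higher in each of the 9 pairs. These sites were chosen after their values had been seen.

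**Figure D3:**
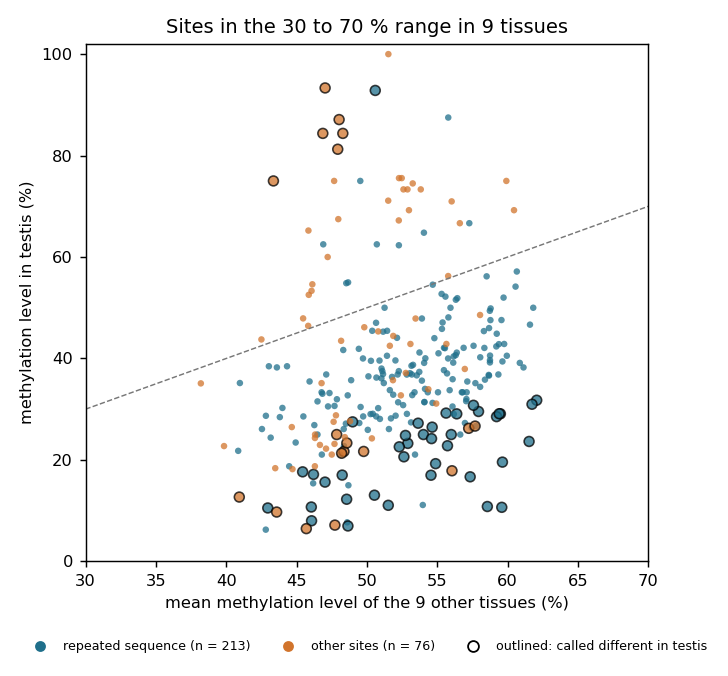
Methylation level in testis (%) against the mean of the 9 other tissues (%) for the 289 selected sites, with repeated sites in blue, other sites in orange, outlined points called different in testis and the dashed line marking equal levels. Of the repeated sites 203 of 213 lie below the line, and of the others 45 of 76. At unselected sites, not drawn, testis was below the mean at 86.6 % of the repeated and 61.6 % of the other sites.

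Of the 76 selected sites that were not repeated, testis was below the mean of the 9 tissues at 45 (59.2 %), below all 9 at 34 (44.7 %) and above all 9 at 22 (28.9 %). At the 41827 unselected sites that were not repeated, these shares were 61.6, 7.95 and 6.24 %. The mean over the 9 tissues had a median of 1.68 % at those unselected sites. The 76 selected sites formed 49 runs, of which 7 had 2 or more sites and held 34 of the sites. Over these 7 runs testis was below all 9 tissues in 4, above all 9 in 1 and among them in 2. Over all 49 runs testis was below all 9 in 24 and above all 9 in 11. A single run on chromosome 8 held 12 of the 22 sites above all 9. Sites of 1 run and strand are covered by the same reads, so their levels are not independent.

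The run with the most sites, 12 within 42 bp at chr8:104306824-104306865, was the highest in testis among the runs of 3 or more sites. All 12 shared sites in its span were selected, 6 on each strand, and its words were found at no more than 3 places. Over the summed reads the level was 40.2 % in rumen, 42.8 % in skeletal muscle, 45.0 % in mammary gland parenchyma, 45.2 % in abomasum, 52.2 % in frontal cortex, 55.3 % in ileum, 55.9 % in lactating mammary gland, 60.4 % in uterus and 60.5 % in nucleated blood cells. Testis, at 77.4 %, lay above all 9. By site it ranged from 71.1 % to 100 %, the latter over 10 reads, and each site was above all 9 tissues. On the plus strand 6 sites had 71.1 to 75.6 % at 45 reads and none passed the test. On the minus strand 4 of 6 sites passed, for example chr8:104306828 with 87.1 % in testis (95 % interval 71.1 to 94.9, 31 reads) against 33.3 to 60.3 % elsewhere (q = 0.000526, Fisher's exact test). The only other shared site within 200 bp lay outside the run and had a mean of 95.3 % over the 9 tissues.

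The run of 8 sites within 46 bp at chr16:49259980-49260025 was lower in testis. It stood at 38.6 % in rumen, at 46.3 % in mammary gland parenchyma, at 50 % in abomasum, 53.4 % in skeletal muscle, 55.7 % in uterus, 55.9 % in lactating mammary gland, 58.1 % in nucleated blood cells, 59.8 % in ileum and 62.4 % in frontal cortex. Testis, at 31.1 % over the summed reads, lay below all 9, and by site it was below all 9 at 5 of the 8. The 6 unselected shared sites in and around the span had means of 45.6 to 61.3 %, so the whole stretch was of middle level. The strands differed in testis, with 37.1 to 48.6 % at the 4 sites of the plus strand (35 reads each) and 21.3 to 26.7 % at the 4 of the minus strand (60 or 61 reads). The 3 sites that passed the test were on the minus strand, such as chr16:49260025 with 26.7 % in testis (95 % interval 17.1 to 39.0, 60 reads) and 47.1 to 69.0 % elsewhere (q = 6.33e-05, Fisher's exact test).

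**Figure D4:**
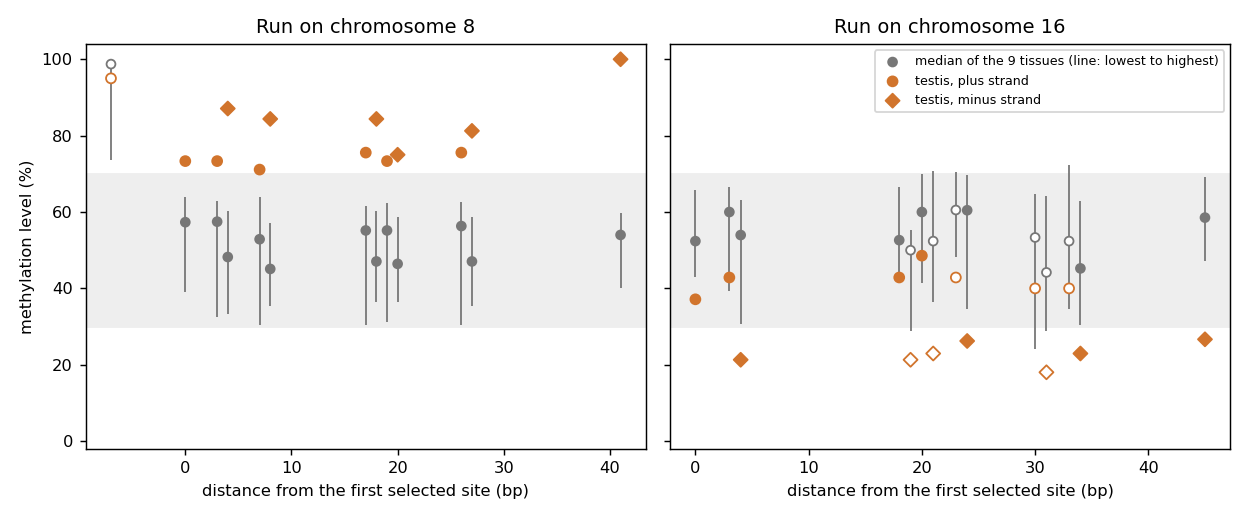
Methylation level (%) of the shared sites in and beside the runs of 12 sites on chromosome 8 (left) and 8 sites on chromosome 16 (right) by distance (bp) from the first selected site. Grey points and lines give the median and range of the 9 tissues, orange symbols testis by strand, open symbols unselected sites and the grey band the range from 30 to 70 %, and testis lies above the tissues in the first run and in their lower part or below them in the second.

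The other runs outside repeated sequence were shorter. At chr9:97661929-97661935, 3 sites had 23.3 % in testis and 31.9 % (rumen) to 62.7 % (nucleated blood cells) in the other tissues, and all 3 passed the test with q from 0.000393 to 0.00212 by Fisher's exact test. At chr27:36960145-36960151, 2 sites had 11.2 % in testis and 31.3 % (mammary gland parenchyma) to 60.6 % (lactating mammary gland) elsewhere, and both passed. At chr18:54379954-54379965, 3 sites had 25.1 % in testis and 32.6 to 61.7 % elsewhere, but the differences of -22.8 to -23.9 points did not reach the 25 points required. Testis lay among the other tissues at chr21:9145530-9145567, with 51.7 % against 30.7 % (rumen) to 62.0 % (abomasum), and at chr7:89220409-89220419, with 39.6 % over 48 reads against 34.4 to 57.2 %.

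The repeated runs with the most sites lay low in testis. The 4 sites at chr13:49010854-49010891 had 33.9 % in testis and 37.3 % (rumen) to 60.9 % (nucleated blood cells) elsewhere. At chr23:19999199-19999355, 4 of the 16 shared sites in the span were selected, with 35.4 % in testis and 43.9 % (frontal cortex) to 64.3 % (nucleated blood cells) elsewhere. The 4 sites at chr13:49004949-49004986 had the lowest testis level relative to the mean of the other tissues among runs of 3 or more sites, 28.7 % against 49.2 to 67.3 %, a difference of -30.4 points. The runs of 3 sites at chr8:11958726-11958752, chr29:19399704-19399742, chr23:26989358-26989399 and chr3:1020038-1020074 had 32.7, 32.7, 32.0 and 24.2 % in testis, below all 9 tissues in each. These levels are over summed reads. The last rests mostly on 1 site, since testis had 795 reads in all and a median of 24 per site. Its sites ranged from 23.4 to 45.8 % in testis. In the first and last of these 4 runs 0 sites were called lower, and in each of the other 2 runs 1 site was. Over all 167 repeated runs, testis was below all 9 tissues in 114 and above all 9 in 3.

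The levels beside the selected sites were counted for repeated and other sites. Another CG was covered within 50 bp of 209 repeated selected sites, and the mean level of these neighbours over the 9 tissues was within the range at 98 and above it at 109. For 74 selected sites that were not repeated, it was within the range at 48, above it at 16 and below it at 10. The neighbours include other selected sites, and the difference was not tested. The cytosine on the opposite strand of the same CG was a shared site for 148 of the 289, and its mean over the 9 tissues was within the range at 121, above it at 23 and below it at 4, with a median of 54.4 %. Both strands were selected for 38 sites, that is where the partner was itself a selected site. The CG lay in a CCGG, the cutting site of *MspI*, for 28 of the selected sites (9.69 %) and for 12.95 % of the other shared sites whose letters were known. The direction differed by sequence. Among repeated sites the shares were 5.16 % of the selected (11 of 213) and 16.8 % of the others. Among sites that were not repeated they were 22.4 % (17 of 76) and 12.1 %. These shares were not tested.

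The X chromosome gave a comparison in which levels near the middle were common. Of 1050 shared X sites, 67 (6.38 %) were within 30 to 70 % in all 8 female tissues, against 320 (0.625 %) of the autosomal sites by the same rule. Females carry an active and an inactive X, and males a single X. At the 67 X sites the male rumen was below the range at 58 and within it at 9, with a median of 0.0 %, and testis had a median of 2.70 %. At the 320 autosomal sites rumen was below the range at 20, above it at 11 and within it at 289, with a median of 47.2 %, and testis had a median of 35.7 %. The male fetal rumen thus lay within the range at the autosomal sites and mostly below it at the X sites. No test was made, since male tissues rest on single libraries.

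Cytosines outside CG had low levels within the runs. In the 30 runs whose span held such cytosines with at least 8 reads in all tissues, 408 cytosines had a mean level of 1.45 % ± 0.171 (SD, n = 10 tissues), and 94930 elsewhere on the autosomes 1.39 % ± 0.0651. The difference of 0.0648 ± 0.163 points was positive in 7 of 10 tissues and was not larger than the spread (two-sided exact permutation test by flipping signs, p = 0.229). All 10 tissues were measured at the same 408 cytosines, so this test covers agreement among libraries and not the spread over cytosines or runs. The direction of the difference turned with weighting by coverage, to -1.17 points, and with a minimum of 20 reads, to -0.247 points.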

How the data were processed

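A single RRBS library represents each of the 10 bovine tissues. The authors trimmed the reads and kept those that a modified SOAPaligner pipeline placed uniquely, and the submitters' processing notes name UMD3.1. Cytosines start at 8 reads in the files, and per cytosine the authors deposited an unnormalized count of reads and the methylation level as a fraction. Columns of further read numbers and p-values in the deposited files were not used here. Methylated reads were taken as level times reads, which was whole at every cytosine.

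The selected sites, the sequence groups and the named runs were chosen with earlier results of these data known. The runs named are the 10 with the most sites (ties broken by reads), the 5 lowest and 5 highest in testis relative to the mean of the other tissues among runs of at least 3 sites, and the 5 with the most reads per site. Other named sites and the non-repeated runs were added after their values had been seen. Run levels are methylated over all reads summed over sites. Testis was compared with the pooled reads of the other 9 tissues by Fisher's exact test with Benjamini-Hochberg adjustment, and the test was checked on simulated data. Intervals are 95 % Wilson intervals, and intervals and tests cover counting error only, since PCR copies were not told apart. At a coverage of 8 reads, 1 read moves a level by a large step, so sites at low coverage are the least certain. Sequence words of 16 letters were counted on both strands. No genome or annotation of UMD3.1 was used here, so imprinted genes, repeat classes and binding motifs were not analysed here. Tools were networkx 3.6.1, matplotlib 3.10.9, Numba 0.67.0, pandas 2.3.3, SciPy 1.17.1, NumPy 2.4.6 and Python 3.11.15, and reads were thinned with seed 1. Alternatives were other minimums of reads, ranges, gaps, differences, leaving out tissues, thinned reads and leaving out repeated sites, the last added after the data were seen.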

Additional observations from a re-analysis of the deposited data

How the results depend on the processing

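The 289 selected sites became 165 with a minimum of 20 reads, 68 with a range from 35 to 65 %, 763 with a range from 25 to 75 % and 76 without repeated sites, and between 313 and 425 when 1 of the 9 tissues was left out of the rule. A minimum of 10 reads, pooling of the strands and removal of the most covered sites moved the number by less than 1.5 times. The 216 runs became 129 with a minimum of 20 reads and were little moved by gaps of 100 or 500 bp.

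The 50 sites lower in testis became 5 when all 9 pairs had to pass, 32 with a minimum of 20 reads, 4 with a difference of 40 points, 25 with thinned reads and 12 without repeated sites. The shares of the selected sites under the first 4 were 1.73, 19.4, 1.38 and 8.65 %, and those of all shared sites 0.640, 21.8, 1.94 and 4.14 %, so the selected sites had the smaller share with 20 reads and with 40 points. Among sites that were not repeated, 15.8 % of the selected and 4.12 % of the unselected sites were lower. The mean over the 9 tissues had a median of 1.68 % at these unselected sites, so many leave no room for a fall of 25 points. Of the unselected sites with a mean in the range of the rule, repeated or not, 22.1 % were lower. The 12 selected sites included 3 in the run of 8 sites on chromosome 16 and 3 in a run on chromosome 9. The 7 higher sites became 1, 2, 2 and 2 under the first 4 of these settings, and 6 without repeated sites. Those 6 were 7.89 % of the selected sites that were not repeated, against 0.720 % of the unselected. Of the 6, 4 lay on the same strand of the run of 12 sites on chromosome 8, so they are not independent. Of the unselected sites with a mean in the range of the rule, repeated or not, 4.47 % were higher. Leaving out 1 of the other 9 tissues from the pool gave 47 to 58 lower and 6 to 7 higher sites. The minimum of 20 reads also leaves fewer sites to test, 165 in place of 289. The non-CG difference of 0.0648 points reversed to -0.247 with a minimum of 20 reads (p = 0.00195) and to -1.17 when weighted by coverage (p = 0.00195), and was 0.401 with runs extended by 100 bp (p = 0.00195), by the exact sign-flip permutation test, where this p is the smallest that 10 tissues allow. Without testis it was 0.0709. The cause was not tested. Coverage limits the sites near the bounds, where 1 read can move a site in or out.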

Other observations

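Among 723 CG sites with at least 8 reads in all 10 tissues on the sequence that the files name chr_defined, which was left out of the autosomal counts, 11 (1.52 %) were within 30 to 70 % in the 9 tissues other than testis. Testis had a median of 38.1 % at these sites and was below all 9 tissues at 7 of them.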
